A study of Mus musculus with 2 samples.

Results

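Radial glia and astrocyte genes were examined in cortical progenitors after knockdown of Phf6, a chromatin-associated plant homeodomain protein encoded on the X chromosome. The set is a list of 47 genes chosen for the cell types that express them, with earlier results of these data known, and all 47 were found among the 47643 gene rows of the count tables. A filter of at least 150 reads in at least 1 library kept 38 of the 47 and 10130 of all genes. The cells came from the cortex of wild-type mice at E14, labelled male in both groups, and were electroporated with siRNA. The siCtl group received non-targeting siRNA and the siPhf6 group a pool of siRNAs against Phf6, a transient knockdown, and both were kept in culture for 5 days before TruSeq RNA v2 libraries were made. There was 1 library of counts in each group. The methods give n = 3, and whether the library holds 1 culture or several pooled ones was not stated in the sources used here. Each comparison is therefore of 2 libraries, with no replicate check, and a test on their reads does not test the conditions.

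Radial glia are the neural stem cells of the developing cortex. They line the ventricle, carry long fibres that guide migrating neurons, give rise to neurons first, and later turn into astrocytes. Both cell types therefore share many transcripts, among them intermediate filaments, glutamate transporters, lipid-binding proteins and the factors that keep stem cells undifferentiated. Mature astrocytes add water channels, gap junctions and metabolic enzymes, with which they clear glutamate and potassium around synapses and supply neurons with glutamine and cholesterol.

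Reads in genes numbered 12155311 in siCtl and 10561757 in siPhf6, and levels are given in RPM (reads per 1e+06 gene reads), so that 1 read is worth 0.0823 RPM in siCtl and 0.0947 RPM in siPhf6. Phf6 itself dropped from 1420 reads to 310. Its log2 ratio, taken throughout as siPhf6 over siCtl, was -1.99 with a 95% counting interval of -2.17 to -1.81, which leaves 25.2% of its siCtl level. The labels call these cells cortical progenitors. Defining radial glia genes were present in both libraries (Vim with 1855 and 1960 reads, Sox2 with 280 and 208), while Pax6 and Hopx stayed under the filter and neuronal transcripts were abundant. Transcripts of 20 postmitotic neuron genes summed to 5970 RPM in siCtl and 5854 RPM in siPhf6, more than the 3180 and 3680 RPM of the 47 radial glia and astrocyte genes. In bulk RNA such as this, fewer cells of a type and less RNA per cell cannot be told apart.

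Of the 38 kept radial glia and astrocyte genes, 14 were called higher in siPhf6, 0 were called lower and 24 were not called. To be called, a gene needed a false discovery rate (FDR, Benjamini-Hochberg over all 10130 genes) under 0.01 when its reads in the 2 libraries were compared by a two-sided exact binomial test, and a log2 ratio beyond 0.25 in either direction. By the same rule 25.9% of all kept genes were called, 13.4% higher and 12.4% lower, against 36.8% of the kept members called higher. The median log2 ratio of the kept members was 0.19 and that of all kept genes 0.01, and 30 of the 38 (78.9%) lay above 0 against 51.8% of all kept genes. The members ranged from -0.22 to 0.88, and 90% of all kept genes lay between -0.50 and 0.53. The counting interval lay above 0 for 20 members, below 0 for 2 (Lhx2 and Msi2) and across 0 for 16. At 1.5-fold or more, 6 members were called higher (Slc1a2, Slc1a3, Slc4a4, Slc15a2, Aqp4 and Nes) and 0 lower, beside 4.18% higher and 3.23% lower among all kept genes. Slc15a2 and Aqp4 passed the read filter in siPhf6 alone, where they are high, so their calls follow in part from the filter. Of the 36 members at 150 reads or more in both libraries, 12 were called higher, 4 of them by at least 1.5-fold, and 0 lower. The shares over all kept genes include genes that passed in 1 library alone. Counts restricted to both libraries, here and below, therefore have no matched background. With 1 library a group the spread between cultures is unknown. If an edgeR exact test assumed a coefficient of variation of 0.1 between cultures, 0 of the 38 members were called, 11 had an unadjusted p under 0.05, all higher, and the lowest FDR was 0.0125, for Nes. Under that assumption 1.63% of all kept genes were called higher and 0.849% lower. By the same edgeR test, 1285 of the 10130 kept genes had an unadjusted p under 0.05.

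**Figure D1:**
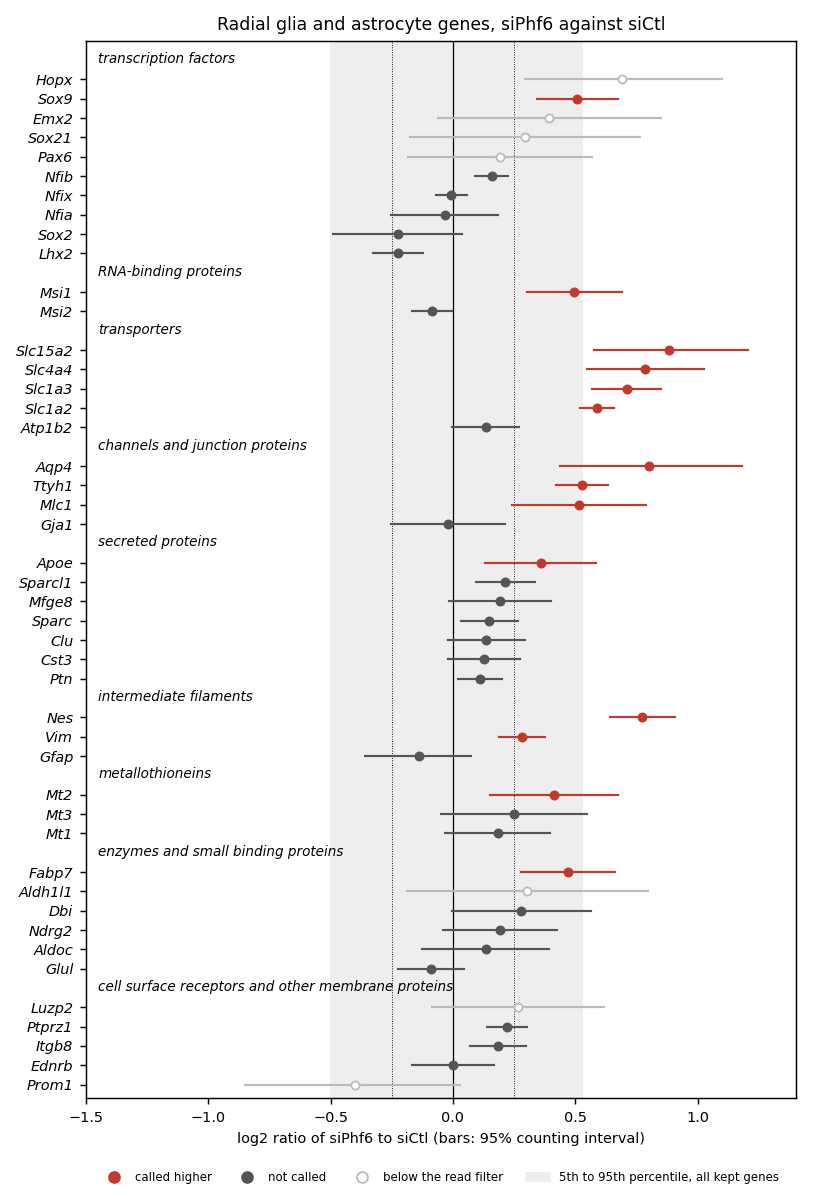
The horizontal axis gives the log2 ratio, siPhf6 over siCtl, of the members with at least 10 reads in at least 1 library. Members are grouped by role, with 1 library per group. Bars are exact 95% counting intervals, red points are called higher, grey points are not called and hollow points lie below the read filter. Of the 14 called genes, 4 are transporters, and Slc15a2 stands farthest to the right among kept members at 0.88.

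**Figure D2:**
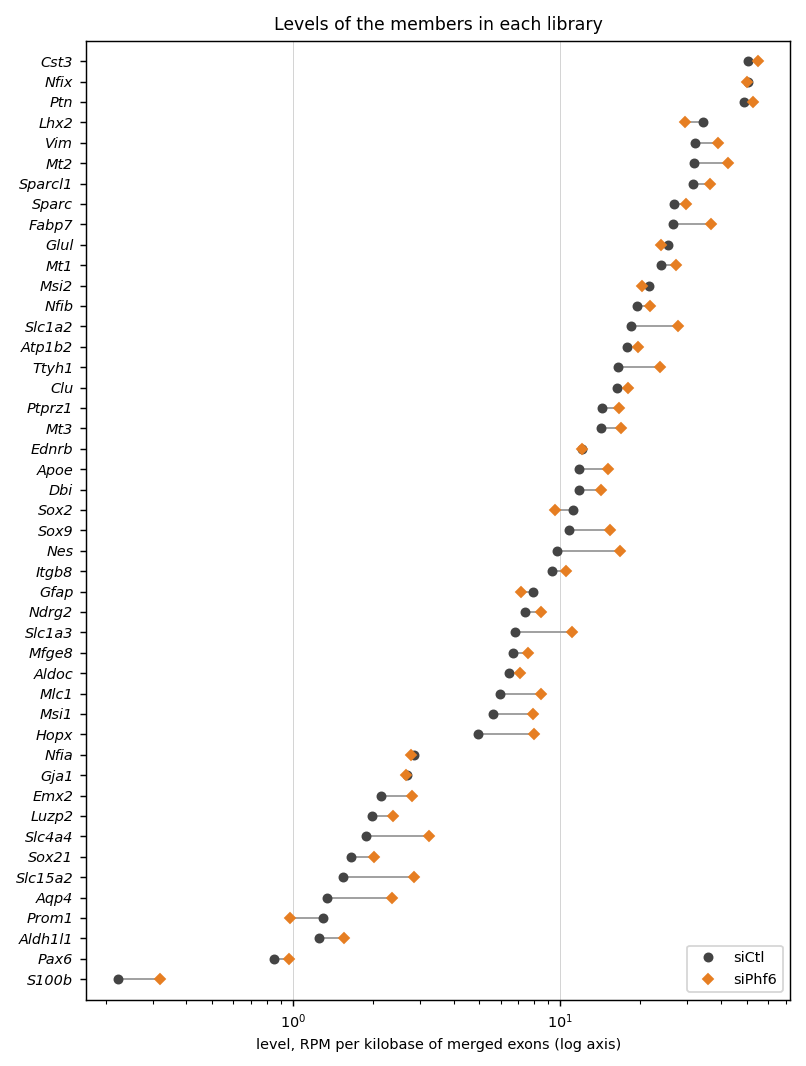
Level of the 46 members with reads in siCtl (black) and siPhf6 (orange), in RPM per kilobase of merged exons on a log axis, ordered by the siCtl level, 1 library per group. Cst3 stands at the top at 50.8 in siCtl and 55.3 in siPhf6, and S100b at the bottom at 0.222 and 0.319.

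The transporters had the highest median log2 ratio of the 9 roles. Astrocytes take up glutamate with Slc1a2 (GLT-1) and Slc1a3 (GLAST), bicarbonate with Slc4a4 (NBCe1) and small peptides with Slc15a2 (PEPT2), while Atp1b2 is a beta subunit of the sodium pump. Of these 5 genes, 4 were called higher, all by at least 1.5-fold, at a median of 0.71. The shares over all kept genes were 13.4% called higher and 4.18% higher by at least 1.5-fold. Among the 4, Slc15a2 passed the read filter in siPhf6 alone, so its call follows in part from the filter. Slc1a2 had 2947 reads (242 RPM) in siCtl and 3846 reads (364 RPM) in siPhf6, a log2 ratio of 0.59 (0.52 to 0.66). Slc1a3, the glutamate transporter that radial glia already carry, had 707 and 1005 reads (58.2 and 95.2 RPM), a log2 ratio of 0.71 (0.57 to 0.85). Both glutamate transporters were thus above siCtl, at 150% and 164% of its level, and their counting intervals overlap each other. Slc4a4 went from 247 to 370 reads (20.3 to 35.0 RPM), a log2 ratio of 0.78 (0.55 to 1.02). Slc15a2 had 138 reads in siCtl, under the filter, and 222 in siPhf6 (11.4 and 21.0 RPM), a log2 ratio of 0.88 (0.58 to 1.21). Atp1b2, with 889 and 847 reads, was not called at 0.13 (-0.0046 to 0.27). Summed over the 5 genes the level was 405 RPM in siCtl and 596 RPM in siPhf6, a ratio of 1.47, and without Slc1a2, the most abundant, 163 and 231 RPM, a ratio of 1.42.

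Windows upstream of the RefSeq starts of called transporters are shown beside that of Sox2 because they differ in base composition. They were picked after the values were seen, and no test was made. The 250 bases upstream of the single RefSeq start of Slc1a2, Slc1a3 and Slc15a2 held 1, 2 and 4 CpG dinucleotides, with a GC content of 44.8%, 44.8% and 45.2%. Sox2, a stem cell factor that was not called, held 27 in a window of 72.0% GC. Across 32851 RefSeq promoters the median was 6 CpG, with quartiles at 2 and 16, and 52.4% GC, and across 56 promoters of 40 matched members it was 9 CpG and 58% GC. Slc4a4, called as well, has 2 such starts with 44 and 3 CpG, so a low count was not found at every start of a called transporter. In the sequences below, on the coding strand of GRCm38.p6 and written 5′ to 3′, capitals mark CpG. Slc1a3 lies on the minus strand at chr15:8710808-8711057, Slc15a2 on the minus strand at chr16:36784963-36785212 and Sox2 on the plus strand at chr3:34649745-34649994.
Slc1a3: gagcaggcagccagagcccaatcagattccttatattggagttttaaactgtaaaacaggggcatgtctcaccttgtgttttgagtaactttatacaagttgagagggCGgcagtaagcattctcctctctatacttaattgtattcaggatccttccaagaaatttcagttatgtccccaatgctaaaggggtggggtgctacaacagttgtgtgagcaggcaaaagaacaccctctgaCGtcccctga
Slc15a2: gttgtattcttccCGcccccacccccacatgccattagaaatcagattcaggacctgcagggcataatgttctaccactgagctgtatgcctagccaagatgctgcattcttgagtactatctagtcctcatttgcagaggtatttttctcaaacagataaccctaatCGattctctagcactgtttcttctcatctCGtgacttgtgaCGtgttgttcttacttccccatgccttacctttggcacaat
Sox2: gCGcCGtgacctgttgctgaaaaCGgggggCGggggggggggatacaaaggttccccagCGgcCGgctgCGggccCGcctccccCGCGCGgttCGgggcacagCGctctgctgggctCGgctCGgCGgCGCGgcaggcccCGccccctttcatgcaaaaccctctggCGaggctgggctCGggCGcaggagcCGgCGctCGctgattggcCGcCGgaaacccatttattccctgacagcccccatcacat

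Channels and junction proteins of the astrocyte membrane also held several calls, 3 higher of 4 kept, with a median log2 ratio of 0.52. The share called higher over all kept genes was 13.4%. The largest of the 3 values, that of Aqp4, belongs to a gene that passed the read filter in siPhf6 alone, so its call follows in part from the filter. Aqp4, the water channel of astrocyte endfeet, had 102 reads in siCtl, under the filter, and 155 in siPhf6 (8.39 and 14.7 RPM), with a log2 ratio of 0.80 (0.44 to 1.18). Mlc1, a membrane protein of astrocyte junctions that is mutated in a leukoencephalopathy with cysts, had 203 and 252 reads (16.7 and 23.9 RPM), a log2 ratio of 0.51 (0.24 to 0.79). Ttyh1, of the Tweety family of volume-regulated anion channels and expressed in neural stem cells, had 1275 and 1596 reads (105 and 151 RPM), a log2 ratio of 0.53 (0.42 to 0.63). The 3 genes called differ widely in depth, and all have intervals above 0. Part of the merged exons of Ttyh1, 6.65% of their length, overlaps exons of other genes, and the kit does not mark strand. The 2 connexins, which form the gap junctions that couple astrocytes, gave no call. Gja1 (connexin 43), the connexin of radial glia and astrocytes, had 335 and 287 reads, a log2 ratio of -0.02 (-0.25 to 0.21). Gjb6 (connexin 30), of mature astrocytes, had 0 reads in both libraries, which allows at most 0.247 RPM in siCtl and 0.284 RPM in siPhf6.

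Of the 3 intermediate filaments, 2 were called higher, beside 13.4% of all kept genes. Nes (nestin), the filament of neural stem cells, had 764 reads (62.9 RPM) in siCtl and 1135 reads (107 RPM) in siPhf6, a log2 ratio of 0.77 (0.64 to 0.91), or 171% of the siCtl level. Vim (vimentin), which radial glia and immature astrocytes share, had 1855 and 1960 reads (153 and 186 RPM), a log2 ratio of 0.28 (0.19 to 0.37), just past the limit of 0.25. Gfap, the filament of differentiated astrocytes, had 405 and 319 reads (33.3 and 30.2 RPM), a log2 ratio of -0.14 (-0.36 to 0.07), and was not called. The intervals of the 3 genes do not overlap one another.

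Transcription factors of radial glia gave 1 call among 6 kept of 10 listed, and a median log2 ratio of -0.02, which turned to 0.17 over all 10 where the filter was lowered to 10 reads. Sox9, an SoxE factor of neural stem cells and of the switch to glia, had 545 and 673 reads (44.8 and 63.7 RPM), a log2 ratio of 0.51 (0.34 to 0.67), and was called higher. Sox2, the SoxB1 factor that maintains stem cells, had 280 and 208 reads (23.0 and 19.7 RPM), a log2 ratio of -0.22 (-0.49 to 0.04), and was not called. These 2 Sox factors lay on opposite sides of 0 and their intervals do not overlap. Lhx2, a LIM homeodomain factor that specifies the cortex, had 1831 and 1361 reads (151 and 129 RPM), a log2 ratio of -0.22 (-0.33 to -0.12), with an FDR of 5.94e-05 by the exact binomial test but inside the limit of 0.25. The nuclear factor I genes Nfia, Nfib and Nfix drive the onset of gliogenesis, and none of the 3 was called. Nfix had 4509 and 3899 reads, a log2 ratio of -0.01 (-0.07 to 0.06). Nfib had 3549 and 3440 reads, a log2 ratio of 0.16 (0.09 to 0.23). Nfia had 376 and 319 reads, a log2 ratio of -0.03 (-0.25 to 0.18). Nfix and Nfib thus set the summed level of this group, which was 942 RPM in siCtl and 977 RPM in siPhf6 and, without Nfix, 572 and 608 RPM.

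The other 4 transcription factors were below the read filter. Pax6, a paired-box factor of cortical radial glia, had 121 and 120 reads, a log2 ratio of 0.19 (-0.19 to 0.57). Sox21, an SoxB2 factor, had 76 and 81 reads, and Emx2, a homeobox factor that patterns the cortex, 78 and 89 reads, with intervals across 0. Hopx, an atypical homeodomain protein that marks outer radial glia and adult stem cells, had 91 and 128 reads (7.49 and 12.1 RPM), a log2 ratio of 0.69 (0.30 to 1.10), and it alone among the members below the filter was called, higher, where the filter was lowered to 10 reads. Sox21, Emx2 and Hopx are also among 6 members with over 5% of their exon length shared with other genes.

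The Musashi proteins Msi1 and Msi2 bind RNA in neural stem cells and repress translation of differentiation genes. Msi1 had 396 and 485 reads (32.6 and 45.9 RPM), a log2 ratio of 0.49 (0.30 to 0.69), and was called higher. Msi2 had 2734 and 2239 reads (225 and 212 RPM), a log2 ratio of -0.09, and was not called, though its interval, -0.17 to -0.0043, ended below 0. The paralogs thus stood apart, while their summed level, 258 RPM in both libraries, was set by Msi2.

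Secreted proteins were close to their siCtl levels. All 7 were kept and lay above 0, 1 was called higher and their median log2 ratio was 0.15. Apoe, the main apolipoprotein of the brain, made by astrocytes, had 306 and 341 reads (25.2 and 32.3 RPM), a log2 ratio of 0.36 (0.13 to 0.59), and an FDR of 0.00483 by the exact binomial test. The matricellular proteins Sparc and Sparcl1 (hevin), which act on synapse formation, had log2 ratios of 0.15 (1233 and 1187 reads) and 0.21 (1122 and 1131 reads). Ptn (pleiotrophin), a growth factor of radial glia, had 2039 and 1913 reads, 0.11 (0.02 to 0.20). Clu (clusterin), a secreted chaperone, had 685 and 654 reads and a log2 ratio of 0.14. Cst3 (cystatin C), a protease inhibitor, had 781 and 740 reads and 0.13, and Mfge8, which bridges dying cells to phagocytes, 380 and 377 reads and 0.19, all 3 with intervals across 0. The 7 genes summed to 539 RPM in siCtl and 601 RPM in siPhf6.

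Metallothioneins bind zinc and copper, and Mt1 and Mt2 are induced by metals through the factor Mtf1 at metal response elements, while Mt3 is the brain form. Mt2 was called higher, with 228 and 264 reads (18.8 and 25.0 RPM), a log2 ratio of 0.41 (0.15 to 0.68). Mt1 had 362 and 357 reads (29.8 and 33.8 RPM), a log2 ratio of 0.18 (-0.03 to 0.40). Mt3 had 185 and 191 reads (15.2 and 18.1 RPM), a log2 ratio of 0.25 (-0.05 to 0.55). All 3 lay above 0 with overlapping intervals, so Mt2 was not shown to differ from its neighbours. The 3 genes lie next to each other on chromosome 8, and the windows upstream of their annotated starts were searched for metal response elements. Capitals mark the core of the metal response element, searched as TGCACNC and TGCGCNC on both strands. Mt1 (chr8:94178839-94179081, ended where its first exon begins in GENCODE) held 1, Mt2 (chr8:94172368-94172617) held 3 and Mt3 (chr8:94152357-94152606) held 0. These counts depend on where the annotated start is placed, and bases downstream of it were not searched, so they do not rank the 3 genes. All are on the plus strand of GRCm38.p6, and 21.4% of the 32851 RefSeq promoters hold at least 1 such match within 250 bases.
Mt1: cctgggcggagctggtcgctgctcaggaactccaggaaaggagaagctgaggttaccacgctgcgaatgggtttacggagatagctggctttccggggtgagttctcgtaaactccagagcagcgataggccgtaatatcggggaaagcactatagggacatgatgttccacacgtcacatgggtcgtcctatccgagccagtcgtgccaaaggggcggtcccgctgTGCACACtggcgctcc
Mt2: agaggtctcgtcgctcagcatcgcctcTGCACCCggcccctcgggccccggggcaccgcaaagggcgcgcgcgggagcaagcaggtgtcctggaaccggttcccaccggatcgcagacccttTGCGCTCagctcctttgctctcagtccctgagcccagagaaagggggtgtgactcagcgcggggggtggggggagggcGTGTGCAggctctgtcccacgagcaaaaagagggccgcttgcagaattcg
Mt3: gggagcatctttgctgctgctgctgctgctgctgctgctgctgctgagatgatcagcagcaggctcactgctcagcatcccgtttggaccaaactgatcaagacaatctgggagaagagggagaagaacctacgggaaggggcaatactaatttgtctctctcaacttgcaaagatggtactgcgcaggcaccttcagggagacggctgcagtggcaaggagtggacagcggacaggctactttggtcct

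Enzymes and small binding proteins gave 1 call among 5 kept of 7. Fabp7 (BLBP), the brain lipid-binding protein of radial glia, had 404 and 486 reads (33.2 and 46.0 RPM), a log2 ratio of 0.47 (0.28 to 0.66), and was called higher. Glul, the glutamine synthetase that turns the glutamate taken up by astrocytes into glutamine, had 1030 and 841 reads (84.7 and 79.6 RPM), a log2 ratio of -0.09 (-0.22 to 0.04). It was not called, and its interval lies below those of Slc1a2 and Slc1a3. Aldoc, a glycolytic aldolase of astrocytes, had 256 and 244 reads, 0.13 (-0.13 to 0.39), and Ndrg2, of the N-myc downstream-regulated family, 307 and 305 reads, 0.19 (-0.04 to 0.43). Dbi, the acyl-CoA-binding protein whose peptides act on GABA receptors, had 203 and 214 reads and a log2 ratio of 0.28 (-0.0050 to 0.56), with an FDR above the limit. Aldh1l1 and S100b, markers of mature astrocytes, were low, while other astrocyte genes on the list, such as Glul, were not. Aldh1l1, a folate enzyme, had 69 and 74 reads, and S100b, a calcium-binding protein, 4 and 5 reads, a level of 0.222 and 0.319 RPM per kilobase of exon, and neither count separates the libraries.

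Cell surface receptors and other membrane proteins gave 0 calls among 3 kept of 5. Ptprz1, a receptor phosphatase that binds pleiotrophin, had 2479 and 2509 reads (204 and 238 RPM), a log2 ratio of 0.22 (0.14 to 0.30). Itgb8, an integrin subunit through which radial glia activate TGF-beta, had 1252 and 1236 reads, 0.18 (0.07 to 0.30). For both genes the FDR of the exact binomial test passed but the ratio stayed under the limit. Ednrb, the endothelin receptor of progenitors and astrocytes, had 627 and 545 reads, a log2 ratio of 0.00 (-0.17 to 0.17). Below the filter, Prom1 (CD133), a pentaspan protein of stem cell protrusions, had 113 and 74 reads, -0.40 (-0.85 to 0.03), and Luzp2, a leucine zipper protein, 135 and 141 reads, 0.27 (-0.09 to 0.62).

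Per kilobase of merged exons, the order of levels was led in both libraries by Cst3 (50.8 RPM per kilobase in siCtl and 55.3 in siPhf6), Nfix (50.5 and 50.2) and Ptn (48.9 and 52.8). None of these 3 was called. Lower in the order stood Slc1a2 (18.5 and 27.7), Nes (9.80 and 16.7) and Slc1a3 (6.81 and 11.1), and Aqp4 (1.35 and 2.35), Slc15a2 (1.54 and 2.86) and Slc4a4 (1.88 and 3.24) were the lowest kept members in siCtl, with few reads and wide intervals. The 6 members at 1.5-fold or more had a median level of 4.35 RPM per kilobase in siCtl, those kept and not called 15.4, and all kept genes 13.6. They were also long, with merged exons of 6233 to 13133 bases and a median of 7949, against a median of 5087.5 over all kept genes and 3936.5 over kept members not called. Subtracting the trend of the log2 ratio on length kept all 6, and took Apoe and Mt2 out of the calls and brought Ptprz1 in, at 0.26.

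**Figure D3:**
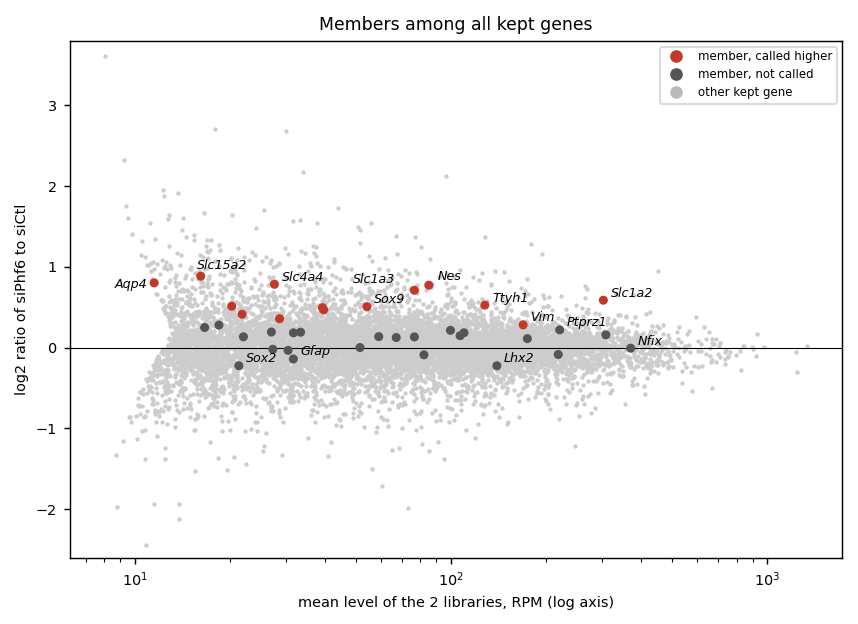
Log2 ratio of siPhf6 to siCtl against mean RPM in the 2 libraries (log axis) for the 10130 kept genes in grey, with the 38 kept members over them, coloured by call, and 14 of them labelled. The 6 members at 1.5-fold or more lie between 0.59 and 0.88, above the 95th percentile of all kept genes at 0.53.

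Other radial glia and astrocyte genes, listed for context with earlier results of these data known, gave calls in both directions. Of 54 listed, 37 were kept, 12 were called higher and 4 lower, with a median log2 ratio of 0.07. Among all kept genes 13.4% were called higher and 12.4% lower, so lower calls were no more frequent in this list. Among the 12 were Tnc (tenascin C, a matrix protein of radial glia, 2469 and 3540 reads, 0.72), Pla2g7 (a phospholipase, 123 and 200 reads, 0.90), Axl (a receptor tyrosine kinase, 0.75), Acsbg1 (an acyl-CoA synthetase, 0.73), Kcnj10 (the potassium channel Kir4.1, 0.61), Lrig1 (a regulator of growth factor receptors, 0.59), Fgfr3 (0.58) and Notch1 (0.29). The 4 called lower were Lifr, a receptor subunit of gliogenic cytokines (1883 and 1174 reads, -0.48), Gli2, an effector of hedgehog signals (-0.43), the cystine transporter Slc7a11 (-0.31) and the GABA transporter Slc6a11 (-0.29). The lower calls were all under 1.5-fold, and 7 of the 12 higher ones reached it. Pla2g7 and Acsbg1, both among the 7, passed the filter in siPhf6 alone, and without them 10 of 35 were called higher, 5 by at least 1.5-fold, and 4 lower.

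Genes that act with the members were followed by role, with counts read against the 13.4% of all kept genes called higher and 12.4% lower. Of 15 genes of the glutamate and glutamine cycle outside the members, 12 were kept, 4 called higher (among them Gls2, a glutaminase, at 0.75, and Slc38a3, the glutamine exporter of astrocytes, at 0.59) and 1 lower (Slc38a2, a neuronal glutamine importer, at -0.27). Gls2, with 113 and 166 reads, passed the filter in siPhf6 alone, and without it 3 of 11 were called higher. In zinc and copper handling, 14 of 18 were kept, 5 were called higher and 0 lower, with a median of 0.16. The copper pump Atp7a, at 343 and 538 reads and 0.85, was the one among these 5 at 1.5-fold or more. Of 8 other Sox factors of the SoxB, SoxE and SoxD groups, 2 were kept, with Sox5 called higher (0.28) and Sox6 lower (-0.60). Of 12 genes of lipoprotein assembly and cholesterol export, partners of Apoe, 8 were kept and 0 were called lower, with a median of -0.04. Of 16 genes that reactive astrocytes induce, 5 were kept, with Lcn2 (lipocalin 2, 142 and 218 reads, 0.82) and S1pr3 (a sphingosine phosphate receptor, 0.53) called higher and Cp (ceruloplasmin, 1100 and 678 reads, -0.49) lower. Lcn2 and S1pr3 both passed the filter in siPhf6 alone, and of the 3 reactive genes that passed it in both libraries 0 were called higher and 1 lower.

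Markers of some other cell types also differed between the libraries, and their part in these results was not tested. Of 16 genes of dividing cells, 5 were kept and 4 called higher, among them Mki67 (120 and 250 reads, 1.26) and Top2a (136 and 275 reads, 1.21). The other kept gene, Pcna (255 and 178 reads), was not called at -0.31. The list summed to 127 RPM in siCtl and 204 RPM in siPhf6. Of the 4 called, Mki67, Top2a and Mcm2 passed the filter through siPhf6 alone, the library where they are high. This leaves 1 call among 2 genes that passed in both. Of 12 oligodendrocyte lineage genes, 2 were kept and both called higher, Olig1 at 0.80 and Olig2 at 1.15, and the list summed to 57.4 and 88.1 RPM. Olig2 (79 and 153 reads) was kept through siPhf6 alone. Intermediate progenitor genes had 2 calls higher among 4 kept of 8, and summed to 206 and 256 RPM, of which Btg2 held 83.2 and 118.6 RPM. Below the filter, Neurog2 went from 48 to 22 reads, Eomes from 9 to 20 and Neurod4 from 13 to 32, and Neurog1 had 0 in both. Of the 20 neuron genes, all kept, 2 were called higher and 3 lower, with a median of 0.04. Among all kept genes 13.4% were called higher and 12.4% lower. Of 10 meningeal fibroblast genes, 1 was kept, Col1a1, at 1.75 (52 and 154 reads), through siPhf6 alone, so that its call says nothing of the list, and the list summed to 25.9 and 47.1 RPM. Endothelial and mural genes summed to 62.5 and 57.3 RPM with 0 calls among 2 kept of 12 and Cldn5 at 0 in both libraries. Of the 12 microglia genes and the 12 genes of ependyma and choroid plexus, 0 were kept. The microglia genes summed to 5.35 and 6.91 RPM, with C1qa, C1qb and C1qc at 0 in both libraries, and those of ependyma and choroid plexus to 16.5 and 23.6 RPM.

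**Figure D4:**
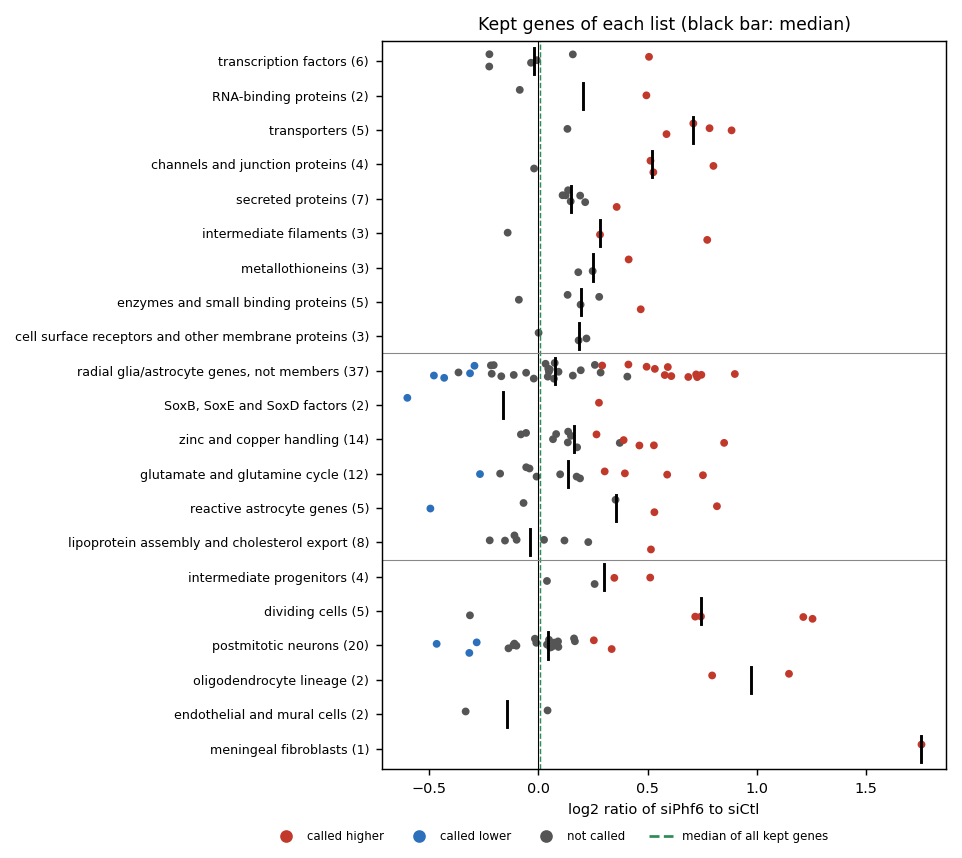
Log2 ratio of siPhf6 to siCtl of the kept genes of each member role (top block), of related gene lists (middle) and of cell type marker lists (bottom), with the number kept in brackets. Each point is a gene, coloured by call, black bars are list medians and the dashed line is the median of all kept genes at 0.01. The transporter median stands at 0.71 and the transcription factor median at -0.02.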

How the data were processed

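The mRNA of 1 siCtl and 1 siPhf6 library of cortical progenitors was sequenced. The deposited values are whole read counts per gene: the authors aligned the reads with HISAT2 (genome mm10), removed duplicates with samtools and counted with HTSeq on GENCODE M9, with no filter (versions of these tools were not given in the sources used here; the submitters' processing notes name deepTools 3.5.1). Reads that HTSeq left in no gene (25.3% in siCtl, 24.1% in siPhf6) or found ambiguous (1.99% and 2.04%) were not used for library sizes.

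Levels in RPM are counts divided by the library's sum of gene reads, and for the log2 ratios 1 read was first added to every count. The filter of 150 reads follows the study's methods, and kept 97.6% and 97.5% of the gene reads. The 2 libraries were compared gene by gene by a two-sided exact binomial test, adjusted over 10130 genes by Benjamini-Hochberg. The 95% Clopper-Pearson (exact) intervals and the limits for 0 reads (3 reads) hold counting error alone and no spread between cultures. They also treat reads as independent, although without molecular identifiers reads may stem from shared molecules. Exon lengths and GC were taken from GENCODE M21 (GRCm38, which is mm10), and promoters from RefSeq (GRCm38.p6). edgeR 4.0.16 and DESeq2 1.42.0 served alternatives in scaling, and edgeR the assumed spread. The binomial test was tested on simulated data that held counting error alone. Every member is named, and of other lists up to 4 kept genes (12 for radial glia and astrocyte genes) by the size of their log2 ratio. The members and lists were chosen with earlier results of these data known. Groups follow the labels. A gene that the naming rule covers is not reported here.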

Additional observations from a re-analysis of the deposited data

How the results depend on the processing

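No spread between cultures can be estimated from 1 library a group, so no library could be left out. No paired analysis was possible because each group has 1 library. All 14 calls among the members held with TMM scaling, DESeq2 size factors, totals without mitochondrial and the 50 most abundant genes, and 0.5 reads added. Without a filter Apoe and Mt2 lost their calls, the secreted proteins and the metallothioneins then having 0 calls each, and the same happened after the length trend was subtracted, where Ptprz1 gave the surface proteins 1 call. After the GC trend was subtracted Apoe lost its call (0 among secreted proteins) and Lhx2 was called lower (1 among the members and the transcription factors) at -0.28, as was 1 gene of lipoprotein assembly.

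With at least 10 reads, or no filter, transcription factors had 2 calls higher and a median of 0.17 in place of -0.02 (0.0083 with the length trend subtracted), other Sox factors 2 calls higher and medians of 0.49 (10 reads) and 0.28 (no filter) in place of -0.16, lipoprotein genes a median of 0.0726 in place of -0.04 (2 calls higher at 10 reads), and zinc and copper genes 1 call lower. No filter also gave other radial glia and astrocyte genes a median of 0.27 and reactive genes 1 call higher. In these settings more genes of low count enter each median. The sign of Nfix (0.0185) and Gja1 (0.0092) turned with the length trend subtracted, and that of Ednrb with TMM or DESeq2 scaling (-0.0083), the length trend (-0.0081) and totals without abundant genes (-0.0010), all within counting error.

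At 1.5-fold, 6 members were called higher: 4 transporters, 1 channel or junction protein and 1 filament, with 0 in the other 6 roles. Other radial glia and astrocyte genes then had 7 higher and 0 lower, glutamate cycle genes 2 and 0 (0 lower also with the length trend subtracted), reactive genes 1 and 0, zinc and copper genes 1 higher, Sox factors and lipoprotein genes 0 higher, and all kept genes 423 higher and 327 lower. With an assumed coefficient of variation of 0.1, members of every role and every other list had 0 calls in either direction except zinc and copper genes (1 higher), against 165 higher and 86 lower of all kept genes, so none of the members' calls is held at that spread.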
